A study of Mus musculus with 6 samples.

Results

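The genes described here are 9 that encode enzymes, receptors and cytokines known for holding back T cells in tumors: *Nos2*, *Ido1*, *Ptgs2*, *Ptges*, *Entpd1*, *Nt5e*, *Adora2a*, *Tgfb1* and *Il10*. They were taken by symbol from the deposited gene table, and all 9 were among its 21358 entries. RNA came from whole B16-F10 tumors, a murine melanoma line grown subcutaneously in C57BL/6 mice. The mice of both groups had received total body irradiation and adoptive cell transfer (ACT) of pmel-1 splenocytes, which carry a transgenic T cell receptor for the melanocyte antigen gp100, once tumors measured at least 150 mm3. One group was then given IL-2 and the other NKTR-214, which is IL-2 carrying polyethylene glycol chains, on different schedules and at different doses. IL-2 was injected intraperitoneally and NKTR-214 intravenously. The authors' schedule repeated dosing in both groups before day 12. Tumors of 3 mice per group were taken at day 12 and gave 1 library each. Every mouse thus had both the irradiation and the transferred cells, and tumors without a cytokine were not analysed here. The comparison asks how these genes differ between tumors treated with ACT + NKTR-214 and with ACT + IL-2.

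Several of these genes act by using up or producing a small molecule that T cells sense. Inducible nitric oxide synthase, the product of *Nos2*, uses arginine, and indoleamine 2,3-dioxygenase, encoded by *Ido1*, breaks down tryptophan into kynurenine. *Ptgs2* and *Ptges* encode the enzymes that make prostaglandin E2 from arachidonic acid. CD39 (*Entpd1*) and CD73 (*Nt5e*) convert extracellular ATP into adenosine, which signals to T cells through the adenosine receptor encoded by *Adora2a*. Transforming growth factor beta 1 and interleukin 10 are secreted cytokines that restrain effector T cells and antigen-presenting cells. Macrophages, other myeloid cells, regulatory T cells and stromal cells are known sources of these products in tumors.

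Values are in FPKM, a count of fragments scaled by exon length and by library size, so that levels can be compared between genes. Whole-read steps in the low FPKM values gave an estimated depth of 20890000 to 24660000 fragments per library. Markers of pigment cells, the tissue of origin of the line, were at summed levels of 4172 to 5369 FPKM in ACT + IL-2 tumors and 2058 to 2923 FPKM in ACT + NKTR-214 tumors, and 4 of 6 were lower. Counts of markers are of limma calls at the threshold given below, where 20.7% of all genes tested were higher and 8.28% lower. Macrophage and monocyte markers were higher in 12 of 12, with summed levels of 290 to 843 FPKM against 1205 to 2078 FPKM. T cell markers were higher in 8 of 8, with sums of 12.2 to 27.8 FPKM against 148 to 314 FPKM, and 6 of 6 tested neutrophil markers were higher, with sums of 4.66 to 11.2 FPKM against 28.5 to 67.2 FPKM, although *Ly6g* was listed at 0 in 5 tumors. Of 4 regulatory T cell markers 2 were higher, while *Foxp3*, the defining one, had a log2 difference of 0.00. In bulk tumor RNA, fewer cells of a type and less RNA per cell cannot be told apart, and the part of these shifts in the results that follow was not tested. Skeletal muscle markers were lower in 4 of 4, though each overlapped between the groups. Fibroblast markers were higher in 5 of 6, with 3 free of overlap. Dendritic cell markers were higher in 4 of 6, with sums of 7.11 to 11.3 FPKM against 18.7 to 29.4 FPKM, and eosinophil markers summed to 0.0951 to 0.222 FPKM against 1.85 to 3.63 FPKM.

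All 9 genes passed the filter on low values, a mean of at least 0.1 FPKM. Of these, 6 were higher in ACT + NKTR-214 tumors (*Nos2*, *Ptges*, *Entpd1*, *Nt5e*, *Adora2a* and *Tgfb1*), and 3 were not called (*Ido1*, *Ptgs2* and *Il10*). None was lower by limma with Benjamini-Hochberg adjustment at a threshold of 0.05, and the counts at an unadjusted p under 0.05 were 7 higher and 0 lower. Among all 14172 genes tested, 20.7% were higher and 8.28% were lower. In the same 6 genes, every ACT + NKTR-214 tumor lay above every ACT + IL-2 tumor, a pattern found in 27.1% of all genes tested, against 15.3% with the opposite order. The median log2 difference was 0.97 over the 9 genes and 0.05 over all genes tested.

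The background count of lower genes moved with the scaling of the libraries and with single tumors. Of all calls, 71.5% were higher on the values as deposited, 46.8% after scaling to a common 75th percentile, 39.7% after scaling to a common sum and 37.0% after quantile normalization. Lower genes made up 26.2%, 31.3% and 32.1% of all genes tested under these 3 scalings. The same 6 genes remained higher under each of these scalings. The number of lower genes was 2003 after ACT + IL-2 replicate 2 was left out, 635 when replicate 3 of that group was left out and 682 with ACT + NKTR-214 replicate 2 left out, against 1173 with all tumors.

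**Figure D1:**
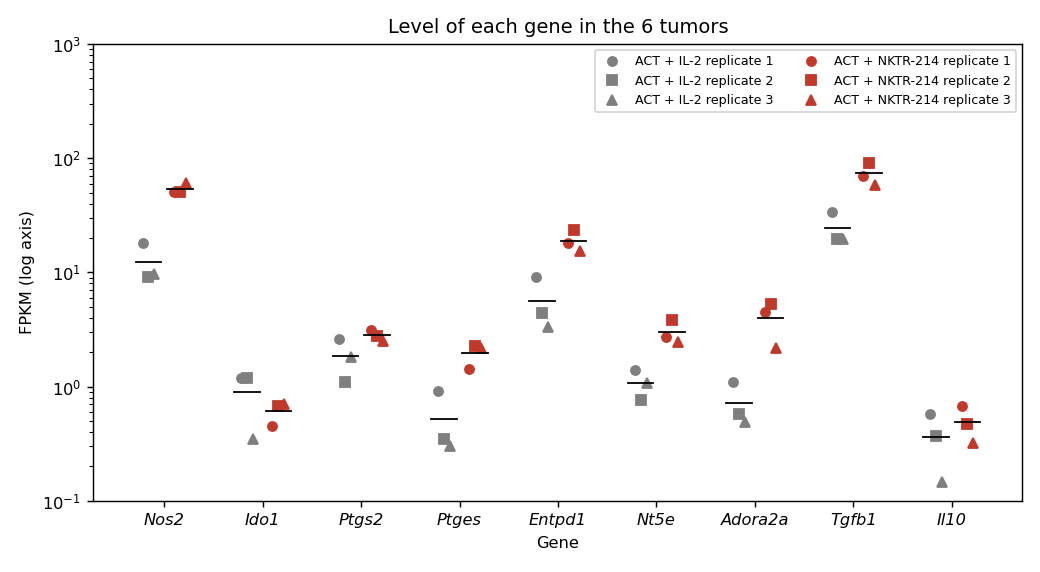
FPKM of each of the 9 genes (log axis) in the 3 ACT + IL-2 and the 3 ACT + NKTR-214 tumors, 1 point per tumor, with a bar at each group mean. *Nos2* and *Tgfb1* are the most abundant in each tumor, with group means of 12.3 and 53.9 FPKM and of 24.3 and 73.5 FPKM, while the points of *Ido1*, *Ptgs2* and *Il10* overlap between groups.

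Together the 9 genes summed to 36.8 to 68.8 FPKM in ACT + IL-2 tumors and 146 to 180.4 FPKM in ACT + NKTR-214 tumors. In ACT + IL-2 tumors the mean levels ran from *Tgfb1* through *Nos2*, *Entpd1*, *Ptgs2*, *Nt5e*, *Ido1*, *Adora2a* and *Ptges* to *Il10*. Only the steps from *Tgfb1* to *Nos2* and from *Entpd1* to *Ptgs2* parted neighbours in that order without overlap between their tumors. In ACT + NKTR-214 tumors the order was *Tgfb1*, *Nos2*, *Entpd1*, *Adora2a*, *Nt5e*, *Ptgs2*, *Ptges*, *Ido1* and *Il10*. Here the ranges of *Tgfb1* and *Nos2* overlapped, as did those of *Adora2a*, *Nt5e* and *Ptgs2* and those of *Ido1* and *Il10*, and the other neighbours were apart. *Tgfb1* was the most abundant transcript of the 9 in every tumor but ACT + NKTR-214 replicate 3, where *Nos2* was.

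**Figure D2:**
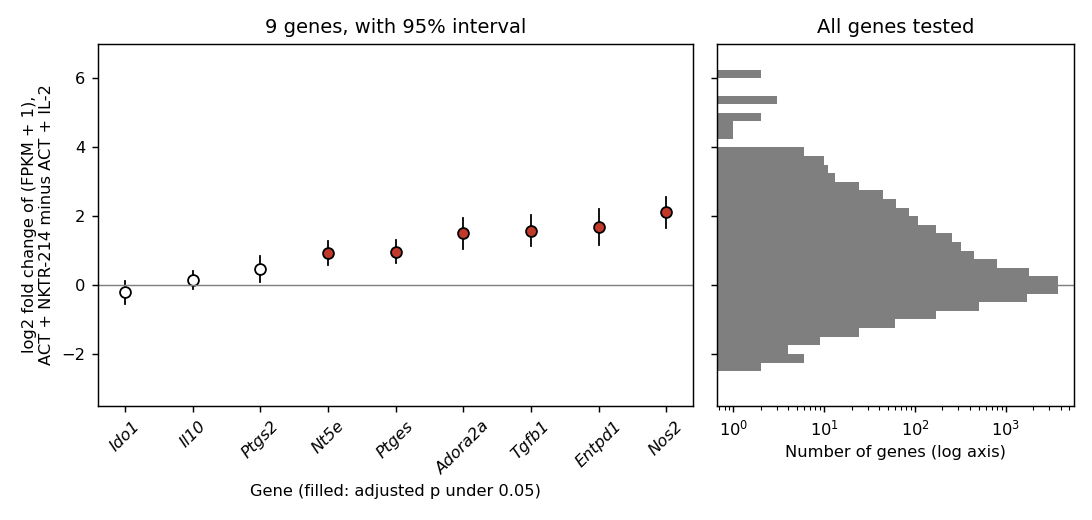
Log2 difference (ACT + NKTR-214 minus ACT + IL-2, on log2(FPKM + 1)) of the 9 genes with 95% confidence intervals from limma, beside the distribution over the 14172 genes tested. The median over all genes is 0.05, and the intervals of *Ido1* and *Il10* include 0.

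*Nos2*, which makes nitric oxide from arginine, is at chr11:78920787-78960254 on GRCm38. It stood at 18.1, 9.05 and 9.62 FPKM in replicates 1, 2 and 3 of ACT + IL-2 and at 50.1, 50.4 and 61.2 FPKM in those of ACT + NKTR-214, the replicate order used throughout. The lowest ACT + NKTR-214 tumor exceeded the highest ACT + IL-2 tumor by more than the range of either group. Means were 12.3 ± 5.08 and 53.9 ± 6.35 FPKM (SD, n = 3 each), a 4.39-fold difference, and the log2 difference was 2.11 ± 0.21 (SE, limma adjusted p = 1.96e-06). Like the other 8 genes, *Nos2* shared no exon bases with another annotated gene, and at most 0.28% of the 50-base windows in the transcripts of any of the 9 (*Tgfb1*) occurred in another gene. Set against the mean of the macrophage and monocyte markers on log2(FPKM + 1), *Nos2* differed by 0.28 between the groups, which overlapped (exact permutation test, two-sided, p = 0.7, where 0.1 is the smallest that 3 against 3 tumors can give). This difference was 0.03 without ACT + NKTR-214 replicate 3, 0.52 without replicate 2 of that group and 0.43 without ACT + IL-2 replicate 3.

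**Figure D3:**
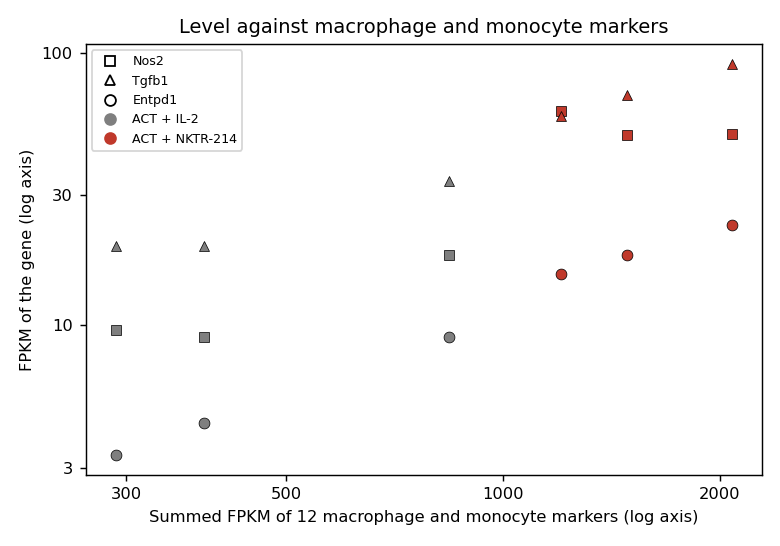
FPKM of *Nos2*, *Tgfb1* and *Entpd1* against the summed FPKM of 12 macrophage and monocyte markers (both axes logarithmic), 1 point per gene and tumor. The ACT + NKTR-214 tumors lie at marker sums of 1205 to 2078 FPKM and the ACT + IL-2 tumors at 290 to 843 FPKM, and each of the 3 genes is higher in every ACT + NKTR-214 tumor.

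Other genes of arginine uptake and use were taken as a list that includes *Nos2*. Of 12 tested, 5 were higher and 1 was lower, with a median log2 difference of 0.31. These counts stand beside 20.7% higher and 8.28% lower over all genes. The number of lower genes was 3 of 12 under each of the 3 scalings (*Oat*, *Asl* and *Srm*), where 26.2% to 32.1% of all genes were lower. *Slc7a2*, a cationic amino acid transporter that imports arginine, rose from 1.09 ± 0.265 to 13.7 ± 2.61 FPKM (log2 difference 2.81, limma adjusted p = 2.92e-08). *Ass1*, which takes part in remaking arginine from citrulline, rose from 5.33 to 16.6 FPKM (log2 difference 1.48, limma adjusted p = 1.68e-05). Both moved the same way as *Nos2*. *Oat*, which breaks down ornithine, fell from 86.7 to 58.5 FPKM (log2 difference -0.56, limma adjusted p = 0.0169), a call that was lost without ACT + IL-2 replicate 3, without ACT + NKTR-214 replicate 2 and with no moderation of the variance (adjusted p = 0.0829, 0.121 and 0.0934). *Slc7a3*, another cationic amino acid transporter, had the smallest log2 difference among the higher genes, 0.48 (limma adjusted p = 0.00144). That rank holds on log2(FPKM + 1), which understates changes of low genes. The means of *Slc7a3*, 0.2945 and 0.806 FPKM, were 2.74-fold apart, against 1.57-fold for *Gch1* of the same list. *Odc1*, which takes ornithine into polyamines, had a log2 difference of 0.03 (limma adjusted p = 0.926). *Asl*, the step after *Ass1*, had a log2 difference of -0.32 that did not pass on the values as deposited (limma adjusted p = 0.103) and passed as lower under each of the 3 scalings, with a range of adjusted p there from 0.00214 to 0.00288.

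*Ido1*, the first and rate-limiting step of the kynurenine pathway in immune cells, is at chr8:24584136-24597009 and was scarce in every tumor. It stood at 1.18, 1.18 and 0.350 FPKM in ACT + IL-2 tumors and at 0.456, 0.670 and 0.711 FPKM in ACT + NKTR-214 tumors. The estimated reads behind these values were 50, 48 and 13, and 20, 29 and 30. The ACT + IL-2 tumors fell on both sides of the other group, with means of 0.903 ± 0.479 and 0.612 ± 0.137 FPKM. The log2 difference was -0.21 (95% interval -0.54 to 0.13, limma adjusted p = 0.359). Without ACT + IL-2 replicate 3, the single low tumor of its group, the log2 difference was -0.44 and passed as lower (limma adjusted p = 0.0149, against a range of 0.0149 to 0.754 over the alternatives).

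The tryptophan list, which includes *Ido1*, had 4 of 12 genes higher and 0 lower by limma, beside 20.7% and 8.28% of all genes, none lower at an unadjusted p under 0.05 either. The median log2 difference was 0.18. *Ido2*, a paralog of *Ido1*, is not counted, because it passed the filter only through the ACT + NKTR-214 tumors. Its mean levels were 0.0777 and 0.164 FPKM. The count of higher genes was 2 with a minimum mean of 1 FPKM, and 1 gene, *Ido1*, was lower without ACT + IL-2 replicate 3. The 4 that rose were *Kmo*, *Kynu*, *Haao* and *Cyp1b1*. *Kmo* and *Kynu*, which convert kynurenine, had log2 differences of 0.78 and 0.47 (limma adjusted p = 0.000308 and 0.000594). *Cyp1b1*, a known target of the aryl hydrocarbon receptor, rose from 2.15 ± 1.52 to 8.04 ± 3.26 FPKM (log2 difference 1.56, limma adjusted p = 0.000572). The receptor gene *Ahr* was at 6.23 and 6.71 FPKM (log2 difference 0.12, limma adjusted p = 0.668). *Cyp1a1*, also on the list, was under the filter, at 0.0301 FPKM in ACT + IL-2 replicate 1 and 0 in the other tumors. *Wars*, the tryptophanyl-tRNA synthetase, was at 54.1 and 55.3 FPKM.

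The prostaglandin pair gave 1 gene past the threshold and 1 short of it, so the sequence around both starts is shown. RefSeq promoter windows on GRCm38.p6 were matched by symbol for 5 of the 9 genes, and 280 bases are given, 250 before and 30 from the start, 5′ to 3′ on the gene's strand. Capitals mark matches to a searched motif.
Ptgs2, chr1:150099781-150100060, plus strand: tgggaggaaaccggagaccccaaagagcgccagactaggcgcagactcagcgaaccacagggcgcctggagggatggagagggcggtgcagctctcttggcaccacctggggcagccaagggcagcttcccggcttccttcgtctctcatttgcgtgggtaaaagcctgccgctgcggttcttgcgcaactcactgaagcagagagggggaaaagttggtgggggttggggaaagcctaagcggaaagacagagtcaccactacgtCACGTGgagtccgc
Ptges, chr2:30903268-30903547, minus strand: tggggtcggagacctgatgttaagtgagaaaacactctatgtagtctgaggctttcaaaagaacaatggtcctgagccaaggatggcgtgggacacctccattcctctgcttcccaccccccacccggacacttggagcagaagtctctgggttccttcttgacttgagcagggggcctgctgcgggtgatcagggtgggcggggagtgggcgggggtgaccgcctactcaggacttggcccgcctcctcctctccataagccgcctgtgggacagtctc
The motifs, searched on both strands, were the interferon-gamma activated site TTCNNNGAA, the interferon-stimulated response element GAAANNGAA, the NF-kB form GGGANTTTC and the hypoxia response core ACGTG. They occur in 7.83%, 8.06%, 1.04% and 18.51% of 32841 promoter windows of this length. In *Ptgs2* the palindrome CACGTG gave a match to the hypoxia core on each strand, overlapping each other, with first bases at +17 and +18 from the start. None of the 4 motifs was found in the *Ptges* window. A match is a description of the letters, not of a bound site.

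*Ptgs2*, which encodes cyclooxygenase 2, is at chr1:150100031-150108227 and stood at 2.61, 1.11 and 1.81 FPKM in ACT + IL-2 tumors and 3.13, 2.77 and 2.53 FPKM in ACT + NKTR-214 tumors. Of the ACT + IL-2 tumors, replicate 1 lay above the lowest ACT + NKTR-214 tumor, so the groups overlapped. Means were 1.85 ± 0.754 and 2.81 ± 0.299 FPKM, with a log2 difference of 0.45 (95% interval 0.07 to 0.83, limma adjusted p = 0.0685). *Ptgs2* was close enough to the threshold for single choices to move it past. Without ACT + IL-2 replicate 1 *Ptgs2* passed as higher (limma adjusted p = 0.00173), as it did without ACT + NKTR-214 replicate 3 (adjusted p = 0.0178), and with all tumors at a minimum mean of 1 FPKM (adjusted p = 0.0492), against a range of 0.00173 to 0.295 over the alternatives. The 2 fits with a tumor left out rest mainly on variance shared over genes, since *Nos2* reached limma adjusted p = 1.93e-37 and 4.31e-24 in them.

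*Ptges*, the microsomal synthase that makes prostaglandin E2 from the cyclooxygenase product, is at chr2:30889471-30929863. Its levels were 0.921, 0.348 and 0.302 FPKM in ACT + IL-2 tumors and 1.44, 2.25 and 2.19 FPKM in ACT + NKTR-214 tumors. There was no overlap, although ACT + IL-2 replicate 1 was over the other two tumors of its group. Means rose 3.74-fold from 0.524 ± 0.345 to 1.96 ± 0.454 FPKM, with a log2 difference of 0.97 ± 0.16 (limma adjusted p = 0.000243). The ratio of *Ptgs2* to *Ptges* in FPKM was 2.84, 3.18 and 6.0 in ACT + IL-2 tumors and 2.18, 1.23 and 1.16 in ACT + NKTR-214 tumors, without overlap. The log2 ratio of *Ptges* to *Ptgs2* depended on the pseudocount. It differed by 0.52 with overlapping groups on log2(FPKM + 1) (exact permutation p = 0.2) and by 1.18 with a pseudocount of 0.1 (exact permutation p = 0.1).

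The prostaglandin list includes both genes, and 9 of 20 tested were higher, beside 20.7% of all genes. None was lower on the values as deposited by limma (1 at an unadjusted p under 0.05), whereas 4 of 20 were lower under each of the 3 scalings (*Ptgds*, *Ptges2*, *Ptges3* and *Abcc4*), beside 26.2% to 32.1% of all genes. The number of lower genes was 1 at a minimum mean of 1 FPKM and with eBayes without trend. It was also 1 with the replicate block and without ACT + IL-2 replicate 2. The median log2 difference was 0.48. *Ptgs1*, the constitutive cyclooxygenase, rose from 0.857 to 3.04 FPKM (log2 difference 1.13, limma adjusted p = 0.000208). *Tbxas1*, which makes thromboxane, rose from 5.69 to 20.3 FPKM (log2 difference 1.75, limma adjusted p = 5.32e-05). The receptors through which prostaglandin E2 raises cyclic AMP rose as well. *Ptger2* went from 0.313 to 2.49 FPKM (log2 difference 1.40, limma adjusted p = 3.79e-06) and *Ptger4* from 1.02 to 4.71 FPKM (log2 difference 1.49, limma adjusted p = 2.53e-05). The smallest log2 differences among the higher genes were 0.64 for *Slco2a1*, a prostaglandin transporter, and 0.65 for *Ptger3* (limma adjusted p = 0.0116 and 0.00158). *Ptger3*, a further prostaglandin E2 receptor, is low, with means of 0.136 and 0.815 FPKM, against 3.16 and 5.38 FPKM for *Slco2a1*. The ratio of means was larger for *Ptger3* than for *Slco2a1*. The rank of *Ptger3* thus holds only on log2(FPKM + 1), which understates changes of low genes. *Ptgds*, the prostaglandin D2 synthase and the most abundant gene of the list, was at 448 ± 61.5 and 302 ± 41.2 FPKM (log2 difference -0.57, limma adjusted p = 0.0684).

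The adenosine genes *Entpd1* and *Nt5e* and the cytokine gene *Tgfb1* had closely matching profiles over the 6 tumors, and their promoter windows are shown for that reason, with a single window of *Entpd1*.
Entpd1, chr19:40612116-40612395, plus strand: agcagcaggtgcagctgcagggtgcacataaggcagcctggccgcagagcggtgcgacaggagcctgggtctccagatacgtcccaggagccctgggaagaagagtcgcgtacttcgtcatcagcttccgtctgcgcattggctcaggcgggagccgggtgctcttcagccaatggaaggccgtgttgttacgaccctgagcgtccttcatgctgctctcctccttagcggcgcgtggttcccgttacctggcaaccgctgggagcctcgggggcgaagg
Nt5e, chr9:88327359-88327638, plus strand: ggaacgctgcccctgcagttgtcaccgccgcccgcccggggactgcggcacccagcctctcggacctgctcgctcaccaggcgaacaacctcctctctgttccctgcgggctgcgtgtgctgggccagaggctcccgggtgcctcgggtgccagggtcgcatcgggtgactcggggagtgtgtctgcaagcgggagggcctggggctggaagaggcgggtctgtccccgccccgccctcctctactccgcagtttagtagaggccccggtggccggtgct
Tgfb1, chr7:25686752-25687031, plus strand: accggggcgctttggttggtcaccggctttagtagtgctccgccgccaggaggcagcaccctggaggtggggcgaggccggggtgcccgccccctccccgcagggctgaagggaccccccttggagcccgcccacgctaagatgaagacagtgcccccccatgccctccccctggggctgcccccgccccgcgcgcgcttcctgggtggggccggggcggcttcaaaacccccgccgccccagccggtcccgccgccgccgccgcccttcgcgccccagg
None of these windows, nor a further *Entpd1* window at chr19:40659520-40659799, held a match to the 4 motifs. The G and C content was 63.9%, 71.1% and 76.8% in the windows printed for *Entpd1*, *Nt5e* and *Tgfb1*, against 61.4% in *Ptgs2* and 59.6% in *Ptges*.

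*Entpd1*, at chr19:40612366-40741602, encodes CD39, which takes ATP down to AMP. It stood at 9.10, 4.37 and 3.34 FPKM in ACT + IL-2 tumors and at 18.2, 23.3 and 15.4 FPKM in ACT + NKTR-214 tumors. The groups did not overlap, and means of 5.60 ± 3.07 and 19.0 ± 4.01 FPKM were 3.39-fold apart (log2 difference 1.68 ± 0.25, limma adjusted p = 9.11e-05). *Nt5e*, at chr9:88327197-88372092, encodes CD73, which takes AMP on to adenosine, and it was the scarcer of the pair in every tumor. Its levels were 1.41, 0.757 and 1.08 FPKM in ACT + IL-2 tumors and 2.74, 3.79 and 2.45 FPKM in ACT + NKTR-214 tumors. Means rose 2.77-fold from 1.08 ± 0.324 to 2.99 ± 0.709 FPKM (log2 difference 0.94 ± 0.16, limma adjusted p = 0.000356). The ratio of *Entpd1* to *Nt5e* in FPKM ranged from 3.09 to 6.47 in ACT + IL-2 tumors and from 6.15 to 6.65 in ACT + NKTR-214 tumors. These ranges overlapped, whereas on log2(FPKM + 1) the ratio was 0.74 higher in ACT + NKTR-214 tumors without overlap (exact permutation p = 0.1), and the difference was 0.45 with a pseudocount of 0.1 (exact permutation p = 0.3) and 0.48 without ACT + IL-2 replicate 3.

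*Adora2a*, the adenosine receptor gene at chr10:75316877-75334784, showed the largest ratio of means among the 9 genes. It was at 1.10, 0.572 and 0.491 FPKM in ACT + IL-2 tumors and at 4.50, 5.31 and 2.19 FPKM in ACT + NKTR-214 tumors. Of the ACT + NKTR-214 tumors, replicate 3 was well under the other two but still above every ACT + IL-2 tumor. Means were 0.720 ± 0.329 and 4.0 ± 1.62 FPKM, a 5.56-fold difference (log2 difference 1.5 ± 0.21, limma adjusted p = 6.96e-05). The T cell markers were also lowest in replicate 3 of that group, at a summed 148 FPKM against 278 and 314 FPKM in replicates 1 and 2, and so were the macrophage and monocyte markers, at 1205 FPKM against 1486 and 2078 FPKM.

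In the adenosine list, *Entpd1*, *Nt5e* and *Adora2a* included, 16 of 20 genes were higher and 1 was lower, with a median log2 difference of 0.88, beside 20.7% and 8.28% over all genes. *Adora1*, which passed the filter through 1 group only, is not counted. *Bst1* and *Cd38*, which break down NAD+ outside the cell and so can feed the same route, rose from 4.81 to 30.8 FPKM and from 4.85 to 21.3 FPKM (log2 differences 2.53 and 1.98, limma adjusted p = 1.67e-06 and 8.77e-06). *Adora2b*, the low-affinity receptor, had a log2 difference of 0.86 (limma adjusted p = 0.00127). *P2rx7*, an ATP-gated channel, had the smallest log2 difference among the higher genes, 0.51 (limma adjusted p = 0.0232). *Adk*, the adenosine kinase, fell from 8.33 to 5.90 FPKM (log2 difference -0.43, limma adjusted p = 0.0478). This call was lost when any tumor but ACT + IL-2 replicate 2 was left out. It was also lost with no filter on low values, with no moderation of the variance and with the replicate block (limma adjusted p = 0.0677, 0.109 and 0.0544). *Ada*, the deaminase, had a log2 difference of 0.32 (limma adjusted p = 0.217).

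*Tgfb1*, at chr7:25687002-25705077, was at 33.8, 19.5 and 19.6 FPKM in ACT + IL-2 tumors and at 70.3, 91.4 and 58.7 FPKM in ACT + NKTR-214 tumors. The groups were apart, and the order of tumors within each resembled that of *Entpd1*. Means rose 3.02-fold from 24.3 ± 8.21 to 73.5 ± 16.6 FPKM (log2 difference 1.58 ± 0.21, limma adjusted p = 3.64e-05). The other two isoforms did not follow. *Tgfb3* had a log2 difference of 0.06 (limma adjusted p = 0.835). *Tgfb2* was at 1.07 ± 0.151 and 0.730 ± 0.0633 FPKM, a log2 difference of -0.26 that did not pass on the deposited values (limma adjusted p = 0.0902) and passed as lower under the 3 scalings (adjusted p from 0.00228 to 0.00784).

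In the TGF-beta list, *Tgfb1* included, 11 of 19 tested genes were higher, beside 20.7% of all genes, a count that was 6 without either ACT + IL-2 replicate 2 or replicate 3, 7 without ACT + NKTR-214 replicate 2 and 6 with no filter on low values. None was lower by limma on the deposited values (1 at an unadjusted p under 0.05), and 2 were lower under each of the 3 scalings, *Tgfb2* and *Smad4*, beside 26.2% to 32.1% of all genes. Without ACT + IL-2 replicate 2 the number of lower genes was 1. The median log2 difference was 0.43. *Furin*, a protease that cuts the precursor, rose from 24.9 to 58.5 FPKM (log2 difference 1.2, limma adjusted p = 4.18e-05). *Lrrc32*, which holds latent TGF-beta at the cell surface, rose from 2.84 to 10.1 FPKM (log2 difference 1.58, limma adjusted p = 0.000141). The receptor gene *Tgfbr2* rose from 16.2 ± 5.66 to 33.0 ± 4.87 FPKM (log2 difference 1.02, limma adjusted p = 0.000933). *Smad3* and *Smad7*, a carrier and an inhibitor of the signal, had the smallest log2 differences among the higher genes, 0.42 and 0.43 (limma adjusted p = 0.0484 and 0.0465).

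*Il10*, at chr1:131019845-131024974, was the scarcest of the 9 by mean in both groups. It stood at 0.577, 0.368 and 0.146 FPKM in ACT + IL-2 tumors and at 0.682, 0.471 and 0.322 FPKM in ACT + NKTR-214 tumors. The estimated reads were 18, 11 and 4, and 22, 15 and 10. The exact Poisson 95% interval of the lowest value, from 4 reads, ran from 0.0399 to 0.375 FPKM. Means of 0.364 ± 0.215 and 0.492 ± 0.181 FPKM gave a log2 difference of 0.13 (95% interval -0.13 to 0.40, limma adjusted p = 0.454). Quantile normalization turned its sign, to -0.052 (limma adjusted p = 0.735, within a range of 0.0995 to 0.951 over the alternatives).

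In the IL-10 list, which includes *Il10*, 7 of 10 tested genes were higher, beside 20.7% of all genes, and 0 lower by limma, 0 at an unadjusted p under 0.05 too, with a median log2 difference of 0.73. *Il10ra*, the ligand-binding chain, rose from 5.70 ± 2.86 to 20.2 ± 7.12 FPKM (log2 difference 1.68, limma adjusted p = 0.000184). *Il10rb*, a chain shared with other receptors, was at 43.3 and 44.2 FPKM (log2 difference 0.03, limma adjusted p = 0.905), and *Stat3*, which carries the signal, at 68.4 and 69.8 FPKM (log2 difference 0.03, limma adjusted p = 0.895). *Bcl3* and *Il1rn*, genes that IL-10 is known to induce, had log2 differences of 1.37 and 1.32 (limma adjusted p = 0.000174 and 6.28e-05). The smallest log2 differences among the higher genes were 0.58 for *Il20rb*, a receptor chain of related cytokines, and 0.63 for the kinase gene *Tyk2* (limma adjusted p = 0.00115 and 0.00574). *Il20rb* is low, and its means of 0.460 and 1.19 FPKM were 2.60-fold apart, against 1.61-fold for *Tyk2*. Its rank thus holds only on log2(FPKM + 1).

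**Figure D4:**
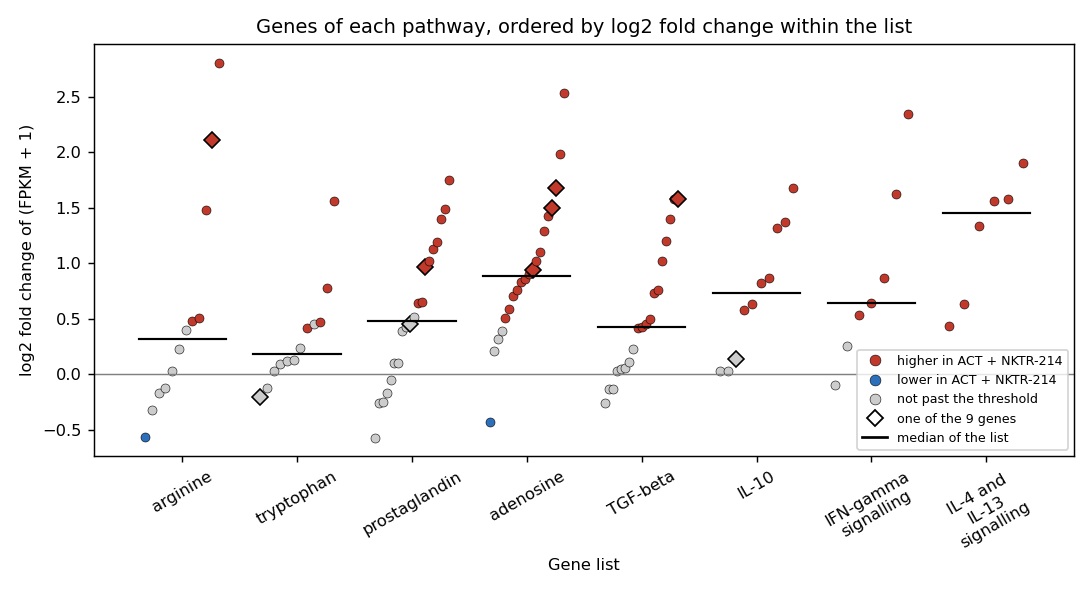
Log2 difference (ACT + NKTR-214 minus ACT + IL-2) of the genes in the 8 lists of pathway genes, 1 point per gene, with calls marked by colour. Genes that passed the filter through 1 group only are left out. The adenosine list has 16 of 20 genes called higher, and the tryptophan list has 4 of 12.

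Over the 8 lists together, 63 of 106 genes were higher and 2 were lower, with a median log2 difference of 0.52, leaving out *Ido2*, *Adora1* and *Il13*, which passed the filter through 1 group only. Over all genes 20.7% were higher and 8.28% lower. The number of lower genes was 10 under each of the 3 scalings, where 26.2% to 32.1% of all genes were lower, and it was 5 with replicate 2 of ACT + IL-2 removed and 0 with replicate 2 of ACT + NKTR-214 removed. Leaving out any other single tumor gave 1.

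Tumors of a group differed along the same lines for most of the 9 genes. Of the ACT + IL-2 tumors, replicate 1 had the highest value for 8 genes, all but *Ido1*, and its macrophage and monocyte markers summed to 843 FPKM against 385 and 290 FPKM in replicates 2 and 3. Of the ACT + NKTR-214 tumors, replicate 2 was highest for 5 genes and its macrophage and monocyte sum was 2078 FPKM against 1486 and 1205 FPKM in replicates 1 and 3. Replicate 3 was lowest for 6 genes but highest for *Nos2* and *Ido1*. The ACT + NKTR-214 tumor with the lowest macrophage and monocyte sum thus had the highest *Nos2*. Other marker sums were also highest in ACT + IL-2 replicate 1 (T cell 27.8 and neutrophil 11.2 FPKM). The same held for ACT + NKTR-214 replicate 2 (T cell 314 and neutrophil 67.2 FPKM). Pigment cell sums were not highest there, at 4934 and 2058 FPKM. What moved these values together was not tested.

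Likeness of pattern was measured as the Euclidean distance between z-scored log2(FPKM + 1) profiles over the 6 tumors, which can reach 4.47, and it is given as a description since all these genes are higher in 1 group. Within the set, *Tgfb1* was the closest gene to each of *Entpd1* (0.31), *Nt5e* (0.40) and *Adora2a* (0.51), and *Nos2* and *Ptges* were closest to each other (0.55). Over genes with a mean of at least 1 FPKM, those nearest to *Nos2* were *Ece2*, *Ctso* and *Alox5*, at distances of 0.14 to 0.19. *Ctso* rose from 4.28 to 9.03 FPKM, whereas *Ece2* rose only from 1.43 to 2.11 FPKM, so that a like profile did not mean a like size of change. *Ptges* was nearest to *Cd163*, *Ifi207* and *Emilin2* (0.14 to 0.22). *Cd163*, a macrophage scavenger receptor, rose from 0.545 to 2.50 FPKM. *Entpd1* was nearest to *Rftn1*, *Mpeg1* and *Dram1* (0.06 to 0.07), *Tgfb1* to *Psap*, *Arl4c* and *Ncf4* (0.04 to 0.06), *Nt5e* to *Arhgap26*, *H2-Q4* and *Timp1* (0.14 to 0.16), and *Adora2a* to *Gmfg*, *Rilpl2* and *4930523C07Rik* (0.04 to 0.12).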

How the data were processed

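The libraries of 6 whole tumors were used, 3 per group. Reads were single-end and 50 bases long. The authors aligned them to GRCm38 (HISAT2 2.0.4), counted per gene with HTSeq and deposited linear FPKM, with a column for each tumor. The submitters' processing notes name these tools, and the annotation is not given in the sources used here. FPKM corrects for exon length and library size only, so a shift in composition moves every other gene.

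Groups were taken from the sample titles. Values were taken as log2(FPKM + 1), which understates changes of low genes. The 14172 genes with a mean of at least 0.1 FPKM were fitted with limma 3.58.1 in R 4.3.3 (lmFit, eBayes with trend), with Benjamini-Hochberg adjustment at 0.05 and ACT + NKTR-214 minus ACT + IL-2 as the sign. The 9 genes, the pathway and marker lists and the rules were chosen with earlier results of these data known. Named pathway genes are the 2 with the largest and the 2 with the lowest log2 difference among the calls of a list, and partners of a member by role. The set was defined with 10 genes, and 1 of them and 3 genes of the pathway lists are not reported here or counted in their lists. Genes lost or gained by an alternative were named after their values were seen. For ratios, 3 exact permutation tests (two-sided) were run, with no adjustment since none can go below 0.1. Whether tumors of a group came from separate experiments is not stated beyond separate mice.

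Depth was estimated from the steps between low FPKM values of genes whose annotated exon length matched. Read numbers from it are estimates, no count test was run, and intervals cover counting error only. Gene positions are those of GENCODE vM21. Promoter windows are those of RefSeq. Matching used Python 3.11.15, pandas 2.3.3 and numpy 2.4.6, and figures matplotlib 3.10.9. The fit was tested on simulated data. Alternatives tried were 0.1 as the pseudocount, a minimum mean of 1 FPKM or none, scaling to a common 75th percentile or sum, quantile normalization, eBayes without trend, no moderation, the replicate number as a block, and each tumor left out in turn.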

Additional observations from a re-analysis of the deposited data

How the results depend on the processing

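The 6 genes were called higher under 14 of 15 alternatives, and without moderation of the variance no gene of the 9 was called (6 at an unadjusted p under 0.05). Without moderation, limma called 101 genes higher and 27 lower over all genes, and 3 higher and 0 lower in the pathway lists, *Ido2*, *Adora1* and *Il13* included here. Of 133 values of the 9 genes under the alternatives, 121 kept their direction and call, 6 lost the call without moderation, 5 gained one, and 1 changed sign (*Il10* with quantile normalization, -0.052). The gains were *Ido1* without ACT + IL-2 replicate 3 and *Ptgs2* in 4 settings, among them a minimum mean of 1 FPKM (limma adjusted p = 0.0492, in a range of 0.00173 to 0.295). With 1 tumor left out, limma adjusted p-values of the 9 genes fell as low as 1.93e-37 (*Nos2*). Such low values rest on variance shared over genes, not on the spread between tumors. Leaving out 1 tumor gave 0 to 1 of the 9 genes lower, 635 to 2003 genes lower over all genes and 0 to 5 in the pathway lists. Over all genes 3709 were lower after scaling to a common 75th percentile, 4440 after scaling to a common sum and 4549 after quantile normalization, with 10 in the pathway lists under each, and 1 in the pathway lists with no filter. These scalings shifted the median log2 difference of all genes from 0.05 by -0.07, -0.13 and -0.15. The deposited values summed to 176420 FPKM in ACT + IL-2 replicate 2 and to 217581 to 246514 FPKM in the other tumors. The cause of the shift was not tested. Deviations of same-numbered tumors correlated at -0.21, -0.07 and 0.40. ACT + IL-2 replicate 1 correlated best with ACT + NKTR-214 replicate 2 (0.59), and ACT + IL-2 replicate 3 with ACT + NKTR-214 replicate 3. With 3 tumors per group these correlations depend on one another, so they cannot settle whether the replicate numbers pair the tumors. With the replicate block, 3090 genes were higher and 1227 lower, and 7 of the 9 genes were higher, *Ptgs2* among them (limma adjusted p = 0.0328), while *Adk* was not called (limma adjusted p = 0.0544). With 3 tumors per group an exact test of a single gene cannot go below p = 0.1. The low read numbers of *Il10* widen its counting intervals, whose part in the missing call was not tested.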

Other observations

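Interferon gamma is a known inducer of *Nos2*, while IL-4 and IL-13 are known to drive the alternative activation of macrophages, so lists of the 2 signalling routes were counted as well. In the list of IL-4 and IL-13 signalling, 6 of 6 tested genes other than *Il13* were higher, with a median log2 difference of 1.45. This count stands beside 20.7% higher and 8.28% lower over all genes. *Il13* passed the filter only through the ACT + NKTR-214 tumors and is given as levels. It was at 0.0695, 0 and 0 FPKM in ACT + IL-2 tumors and at 0.806, 0.918 and 1.01 FPKM in ACT + NKTR-214 tumors. *Il4ra*, the receptor chain used by both cytokines, rose from 8.51 ± 5.31 to 31.5 ± 5.0 FPKM (log2 difference 1.90, limma adjusted p = 5.57e-05), and *Stat6* from 26.8 to 36.3 FPKM (log2 difference 0.43, limma adjusted p = 0.0431). *Cebpb*, a transcription factor of myeloid cells, rose from 34.7 to 101 FPKM (log2 difference 1.58, limma adjusted p = 8.58e-05), and *Il13ra1*, a receptor chain for IL-13, had a log2 difference of 0.64 (limma adjusted p = 0.00469). *Il4* itself was under the filter, at 0 to 0.0814 FPKM and 0 to 0.210 FPKM.

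In the list of interferon gamma signalling, 5 of 7 genes were higher and 0 lower by limma, beside 20.7% and 8.28% of all genes. At an unadjusted p under 0.05, 0 were lower too, and the median log2 difference was 0.64. *Ifng* rose from 1.59 ± 0.612 to 6.91 ± 1.19 FPKM (log2 difference 1.63, limma adjusted p = 8.29e-06) and *Ifngr1* from 12.0 ± 4.01 to 65.7 ± 19.99 FPKM (log2 difference 2.35, limma adjusted p = 1.93e-06). *Jak2*, a kinase of that receptor, and the transcription factor gene *Irf8* had log2 differences of 0.64 and 0.53 (limma adjusted p = 0.00353 and 0.0265). *Socs1*, a feedback inhibitor that interferon gamma is known to induce, rose from 18.4 to 33.6 FPKM (log2 difference 0.87, limma adjusted p = 0.00225). *Irf1*, also known to be induced by it, had a log2 difference of -0.09 (limma adjusted p = 0.724). *Ido1*, also known as an interferon gamma target, was likewise not called, with a log2 difference of -0.21, while *Nos2* rose.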
